A study of Homo sapiens with 9 samples.

Results

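The proximal long arm of chromosome 19 carries runs of genes for C2H2 zinc finger proteins, many of them transcriptional repressors. The genes described here were the protein-coding genes of the count table named ZNF and a number that start on the long arm of chromosome 19 below position 50000000 (genome build hg19), the first at 30719197 and the last at 48675575. There were 65 such genes of 57820 in the table, under 64 symbols, because ZNF223 stands on 2 gene identifiers. The rule used gene type, names and positions only, and was set with earlier results of these data known. RNA near the histone mark H3K9me3 was measured by Chrom-seq in HEK293T, a line established from human embryonic kidney. Cells were transiently co-transfected with APEX2, a peroxidase that attaches biotin to nearby molecules, fused to an antibody fragment, and with an array of SunTag epitopes that this fragment binds. In the CBX1 group the array was fused to the chromodomain of CBX1, in the CBX1_W42A group to the same chromodomain with the change W42A, and in the Control group to no reader. The count labels of all 9 libraries, Control included, carry NLS, the usual short form of nuclear localization signal, without further description. All 9 libraries, 3 in each group, came from cells that had expressed the constructs for 48 h. They were then given biotin-aniline (500 μM, 30 min), a 1 min pulse of hydrogen peroxide (1 mM) started the labeling, and biotinylated polyadenylated RNA was sequenced. The labels do not say whether replicates were separate cultures, although a legend of the study calls the CBX1 replicates independent, so p-values measure the spread between these libraries as deposited.

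CBX1 is a heterochromatin protein 1 family member, and its chromodomain holds the methylated lysine of H3K9me3 in a pocket of aromatic residues, of which the tryptophan changed in W42A is 1. Many ZNF proteins begin with a KRAB box, which binds TRIM28, also called KAP1. TRIM28 brings in the methyltransferase SETDB1, which writes H3K9me3 at the DNA that the fingers recognise. The ZNF genes themselves lie in tandem clusters on chromosome 19, and in many cell lines their finger-coding last exons carry H3K9me3 and heterochromatin protein 1.

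The finger exons repeat one another closely, and how reads matching several relatives were assigned is not given in the sources used here. Stretches of the last coding exon of 3 genes discussed below, and of ZNF146, the most abundant of the set, are shown 5′ to 3′ on the coding strand from GRCh37, with the codons of the linker between fingers (threonine, glycine, glutamate, lysine, proline) in capitals. They lie at chr19:37368489-37368671 (ZNF345, plus strand), chr19:40540426-40540608 (ZNF780B, minus strand), chr19:37441460-37441642 (ZNF568, plus strand) and chr19:36727625-36727723 (ZNF146, plus strand).
ZNF345: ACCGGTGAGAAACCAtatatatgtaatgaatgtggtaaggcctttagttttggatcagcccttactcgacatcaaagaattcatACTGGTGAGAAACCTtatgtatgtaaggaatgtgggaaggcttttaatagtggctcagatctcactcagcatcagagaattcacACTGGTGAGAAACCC
ZNF780B: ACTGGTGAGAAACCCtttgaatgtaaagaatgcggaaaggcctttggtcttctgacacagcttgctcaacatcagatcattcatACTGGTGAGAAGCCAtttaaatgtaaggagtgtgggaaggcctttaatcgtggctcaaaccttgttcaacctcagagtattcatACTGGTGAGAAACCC
ZNF568: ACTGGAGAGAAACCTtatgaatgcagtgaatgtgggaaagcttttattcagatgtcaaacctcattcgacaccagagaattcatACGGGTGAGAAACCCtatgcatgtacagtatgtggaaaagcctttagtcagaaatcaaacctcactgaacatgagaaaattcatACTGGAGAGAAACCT
ZNF146: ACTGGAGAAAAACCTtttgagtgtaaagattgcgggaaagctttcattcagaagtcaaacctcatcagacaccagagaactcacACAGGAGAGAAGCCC
Between linkers lies 1 finger repeat, in which tgt and tgc encode cysteine and cat and cac encode histidine, the residues that hold the zinc ion. The later ZNF780B repeat is incomplete, with cct, for proline, in place of the first histidine. Of the 63 members with a coding sequence in the reference annotation, 55 (87.3%) encode the linker at least once, against 2.65% of 18805 protein-coding genes. These proteins have between 1 and 29 fingers, with a median of 12. A KRAB A box pattern was found in 47 of the 63, against 1.53% of protein-coding genes. ZNF345, ZNF850, ZNF146, ZNF574, ZNF507, ZNF428 and ZNF576 were among the 16 in which it was not found, and a diverged box can escape the pattern.

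By position, 58 members fell into 4 clusters of neighbouring starts. The first, ZNF302 to ZNF792, held 5 members over 0.286 Mb (chr19:35168544-35454953). The second, ZNF565 to ZNF573, held 26 over 1.63 Mb (chr19:36673188-38307940), and the next, ZNF546 to ZNF780A, held 3 over 0.107 Mb (chr19:40490041-40596845). The last, ZNF575 to ZNF180, held 24 over 0.975 Mb (chr19:44029649-45004576). The 7 scattered members were ZNF536, ZNF507, ZNF574, ZNF526, ZNF296, ZNF541 and ZNF114.

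Counts in the table span whole genes, introns included, and no read was counted where genes of the same strand overlap. Strand was used: ZNF146 lies wholly within ZNF565 on the other strand and still had the highest count of the set. All 7905 genes of the table that lie inside another gene of their strand had 0 counts. Among the members, ZNF585A, ZNF781, ZNF780A, ZNF222, ZNF285, ZNF229 and the inner ZNF223 entry (ENSG00000178386) had 0 counts in all 9 libraries. Of these 7, 4 lie inside another gene of their strand, and ZNF780A, ZNF222 and ZNF229 have only 0.0597%, 0.154% and 0.405% of their span free, so a 0 here is not a measure of their RNA. ZNF575 and ZNF541 had too few counts for the test of CBX1 against Control, which covered 56 members, and the other comparisons covered 58. Members with little free span, where the value speaks for that stretch alone, were ZNF607 (2.57% free), ZNF576 (4.72%), ZNF112 (7.72%), ZNF284 (13.1%), ZNF585B (20.9%), the outer ZNF223 entry (36.2%) and ZNF540 (42.7%).

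Libraries held 8379542 to 11082852 counts, of which 9753 to 14635 fell in the members. In HEK293T cells KRT8, KRT18, VIM, PAX2 and LIN28B are expressed, and each exceeded 1 CPM in all 9 libraries. For these marker genes, CPM are counts scaled to a common library size without TMM factors. Of genes of other cell types, PTPRC and CDH5 stayed at or below 0.201 CPM, and ALB lay between 0.369 and 2.87 CPM, above 1 CPM in 6 libraries. The CPM values of members and pathway genes below were scaled with TMM factors as well. In bulk libraries, fewer labeled cells and less RNA per cell cannot be told apart.

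Summed over the members, captured RNA was higher with CBX1 than in either other group. Greater capture and a changed level of the RNA in the cells cannot be told apart in these libraries. The sum was 1158, 1299 and 1178 CPM in the Control libraries, 1113, 1320 and 1115 CPM with CBX1_W42A, and 1367, 1423 and 1415 CPM with CBX1. The CBX1 range did not overlap the others, with means of 1402 ± 30.2 for CBX1, 1212 ± 76.4 for Control and 1183 ± 119 for CBX1_W42A (SD, n = 3 each). Relative to the Control mean, the median log2 ratio over 56 members was 0.34, 0.31 and 0.36 in the CBX1 libraries, while the Control libraries lay between -0.07 and 0.11. CBX1_W42A replicate 2, at 0.17, stood above replicates 1 and 3, at -0.10 and -0.11. Over all genes, the same median lay between -0.02 and 0.03 in every library.

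**Figure D1:**
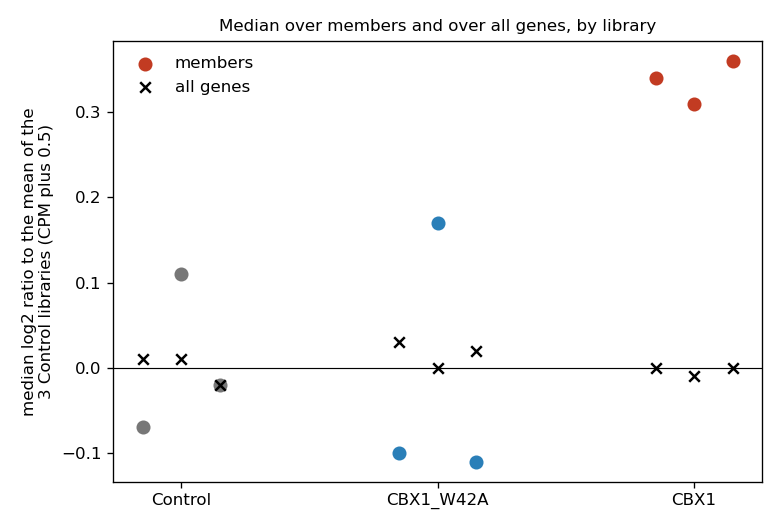
Median log2 ratio of each library to the mean of the 3 Control libraries (vertical axis), over 56 members (filled points) and over all genes tested (crosses), by group (horizontal axis). The CBX1 libraries sit between 0.31 and 0.36 for the members, above the other 6 libraries, while the medians over all genes stay near 0.

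Levels differed widely among members. ZNF146, a protein made almost only of fingers, had 210, 223 and 209 CPM in the Control libraries. ZNF507 had 91.9 ± 3.23 CPM, ZNF428 78.0 ± 8.26 CPM and ZNF574 51.9 ± 0.169 CPM in Control (SD, n = 3). Per kilobase of free span, ZNF146 was at 8.86 CPM per kb in Control, ahead of ZNF428 (6.16), ZNF302 (4.08) and ZNF574 (3.97), over 48 members with at least 80% of their span free and a median of 0.524 CPM per kb. At the same per-length scale ZNF155 stood at 1.18 CPM per kb and ZNF850 at 0.294.

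CBX1 against Control asked which RNAs the H3K9me3 reader captured above the reader-free background. A call required an adjusted p below 0.05 by edgeR's quasi-likelihood test and a change of 0.75 or more on the log2 scale. Of 56 members tested, 9 (16.1%) were called higher, against 7.06% of all genes tested, and 0 were called lower, against 0.340%. DESeq2 likewise gave 9 higher and 0 lower (5.63% and 0.276% of all genes by that tool). At an unadjusted p below 0.05, 30 members (53.6%) were higher, against 18.2% of all genes, and 2 (3.57%) were lower, against 16.1%. At any fold change, 22 members (39.3%) were higher at an adjusted p below 0.05, against 10.6% of all genes, and 1 (1.79%), ZNF146, was lower, against 9.46%. The 3 CBX1 libraries all exceeded the 3 Control libraries for 30 members (53.6%), against 17.9% of all genes, and all fell below them for 2 (3.57%), against 19.9%. The median log2 fold change was 0.41, a 1.32-fold difference, with 45 of 56 above 0, beside a median of 0.03 over all genes and 52.9% above 0. Members at or under the set's median Control level had a median of 0.54 and those above it 0.23 (28 each), and with the trend of fold change on abundance removed the median of all 56 was 0.33.

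**Figure D2:**
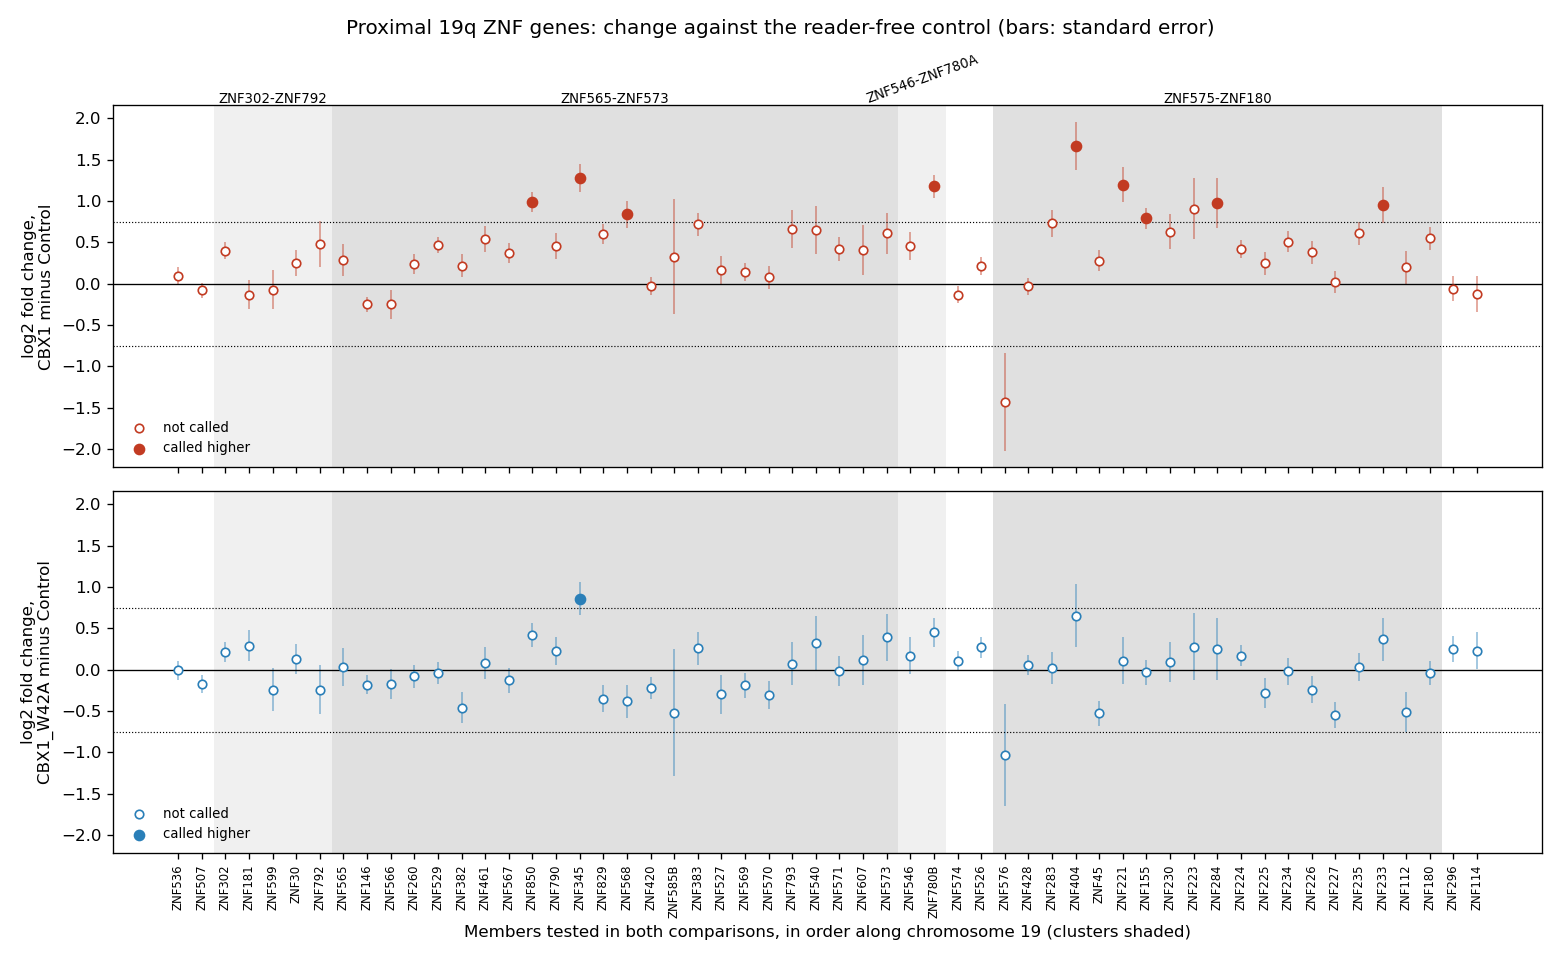
Log2 fold change of each member tested in both comparisons against Control, in order along chromosome 19 with clusters shaded (top, CBX1; bottom, CBX1_W42A; bars, standard error; dotted lines, 0.75 in either direction; filled points, called). In the top panel 9 members are called and most lie above 0, whereas in the bottom panel ZNF345 is the 1 member called.

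The 9 called members came from 3 of the 4 clusters. In the ZNF575 to ZNF180 cluster, ZNF404 (chr19:44376515-44405537, minus strand) had 1.36, 2.26 and 1.69 CPM in Control, 1.56, 3.58 and 3.28 CPM with CBX1_W42A and 5.34, 6.53 and 4.74 CPM with CBX1. The CBX1 libraries lay above all 6 others, and the log2 fold change over Control was 1.67 ± 0.29 (SE; adjusted p = 0.00108), on low counts and with 67.0% of the gene free of overlap. ZNF221 (chr19:44455375-44471861, plus strand) had 3.20, 4.64 and 3.86 CPM in Control, 3.20, 5.05 and 4.44 CPM with CBX1_W42A and 8.02, 9.08 and 9.28 CPM with CBX1. Control and CBX1_W42A overlapped and CBX1 stood apart, by 1.20 ± 0.21 over Control (adjusted p = 0.00128). ZNF155, whose start lies just beyond the end of ZNF221 on the same strand, had 32, 43.8 and 31.6 CPM in Control, 30.8, 42.8 and 32.1 CPM with CBX1_W42A and 59.3, 68.9 and 55.2 CPM with CBX1. It showed the same order at a higher level, with a log2 fold change of 0.79 ± 0.13 (adjusted p = 0.000649), and fell under the 0.75 limit without Control replicate 1 (0.71), Control replicate 3 (0.72) or CBX1 replicate 2 (0.69).

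Also in this cluster, ZNF233 had 3.59, 4.30 and 3.14 CPM in Control, 4.03, 5.16 and 5.18 CPM with CBX1_W42A and 7.79, 6.53 and 6.77 CPM with CBX1. Its CBX1 libraries lay above the other 6, at a log2 fold change of 0.95 ± 0.22 over Control (adjusted p = 0.00717), and at 0.71 with the abundance trend removed. ZNF284, counted on 13.1% of its span, had 2.33, 2.26 and 1.57 CPM in Control, 1.65, 3.47 and 2.33 CPM with CBX1_W42A and 4.45, 4.43 and 3.29 CPM with CBX1. CBX1 did not overlap Control here but did overlap CBX1_W42A. The change of 0.98 ± 0.30 (adjusted p = 0.0279) lost its call without Control replicate 3, CBX1 replicate 1 or CBX1 replicate 2 (adjusted p = 0.0888, 0.0874 and 0.0813) and with the abundance trend removed (0.63, adjusted p = 0.185).

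In the ZNF565 to ZNF573 cluster, ZNF345 (chr19:37341263-37403931, plus strand) had 8.64, 7.01 and 11.1 CPM in Control, 13.9, 19.7 and 15.3 CPM with CBX1_W42A and 23.5, 20 and 20.2 CPM with CBX1. All 3 groups were separate, with CBX1 over Control by 1.28 ± 0.17 on the log2 scale (adjusted p = 0.000133). ZNF850 (chr19:37205285-37263727, minus strand), whose 29 fingers are the most in the set, had 16.2, 18 and 17.4 CPM in Control, 21.6, 25.2 and 22.3 CPM with CBX1_W42A and 31.3, 37.3 and 32.2 CPM with CBX1. Its groups were in the same order without overlap, with a log2 fold change of 0.99 ± 0.12 over Control (adjusted p = 7.86e-05). ZNF568 (chr19:37407231-37489602, plus strand), whose mouse counterpart represses Igf2 in the placenta, had 10.7, 11.2 and 13.8 CPM in Control, 9.15, 11.2 and 7.19 CPM with CBX1_W42A and 17.4, 22.9 and 22.3 CPM with CBX1. Here CBX1_W42A did not exceed Control, and CBX1 lay above both, over Control by 0.84 ± 0.16 (adjusted p = 0.00174).

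The remaining called member was ZNF780B of the ZNF546 to ZNF780A cluster (chr19:40534167-40562116, minus strand). It had 13.1, 16.9 and 19.3 CPM in Control, 19.8, 25.5 and 22.1 CPM with CBX1_W42A and 33.8, 40 and 35.3 CPM with CBX1. The 3 groups did not overlap, and CBX1 exceeded Control by 1.18 ± 0.14 (adjusted p = 6.35e-05), on 73.3% of its span. Its neighbour ZNF546 had 8.15, 8.37 and 7.61 CPM in Control and 11.7, 10.2 and 10.8 CPM with CBX1, without overlap, but the difference of 0.46 ± 0.17 did not pass (adjusted p = 0.0604).

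**Figure D3:**
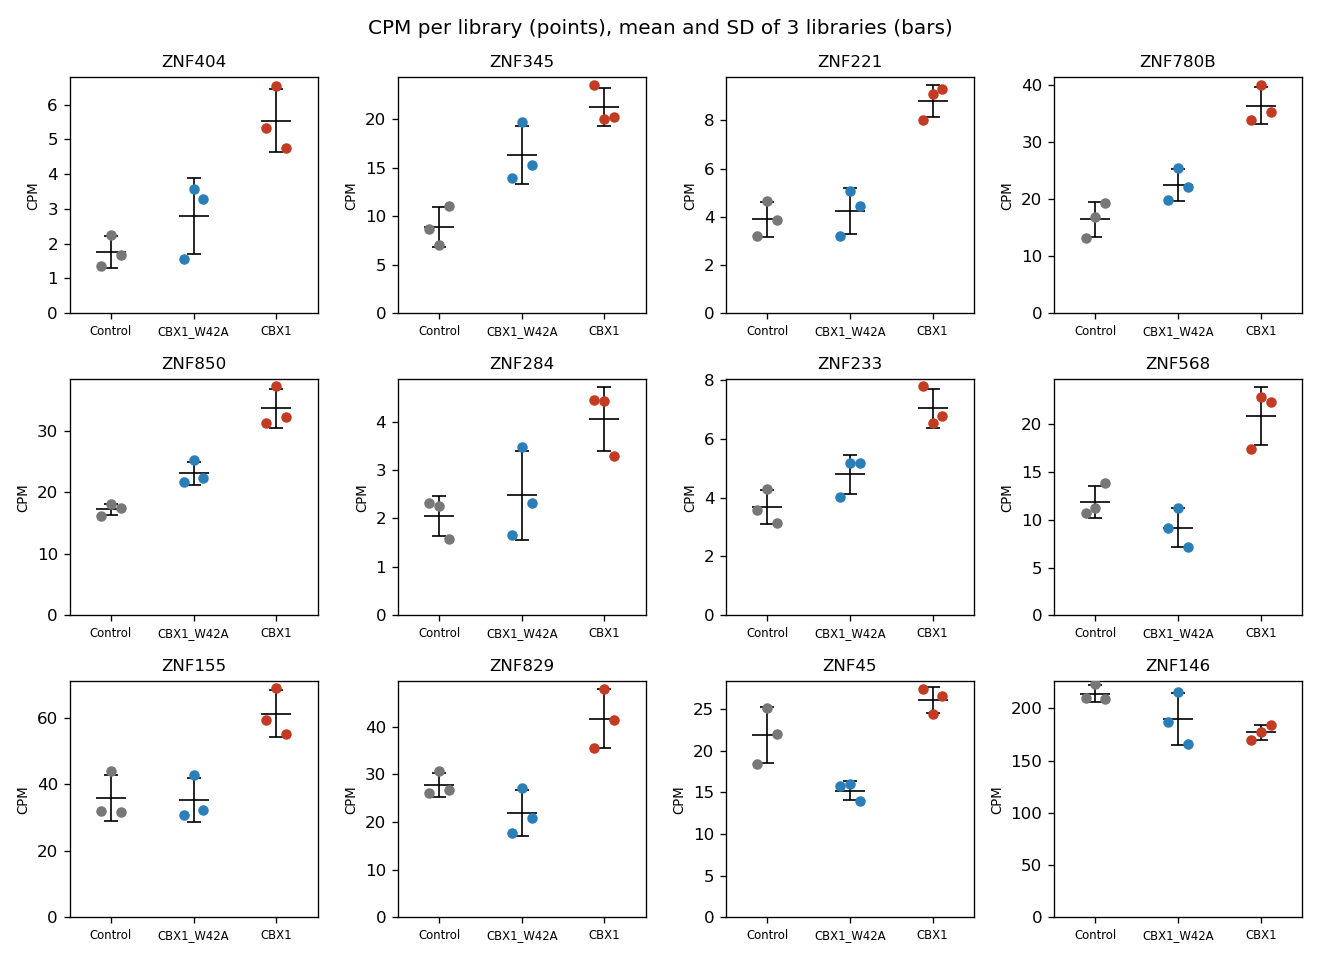
CPM per library (vertical axes, each from 0) by group (horizontal axes) for the 9 members called in CBX1 against Control, for ZNF829 and ZNF45, called in CBX1 against CBX1_W42A, and for ZNF146 (points, libraries; bars, mean and SD of 3). CBX1 lies above Control without overlap in the 9 called members and in ZNF829, and below it in ZNF146.

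A few members lay on the other side. ZNF146 had 170, 177 and 184 CPM with CBX1, below every Control library, and its log2 fold change of -0.25 ± 0.09 reached an adjusted p of 0.0472, short of the 0.75 limit. An adjusted p below 0.05 was kept with RLE factors (0.0433) and by DESeq2 (0.0263) and lost in the other 13 of 15 alternative fits, among them every fit that left out 1 library (0.0707 to 0.135). With the abundance trend removed, the value for ZNF146 was -0.09 (adjusted p = 0.552). ZNF576, a short gene counted on 4.72% of its span, had 0.970, 1.47 and 1.09 CPM in Control and 0.223, 0.443 and 0.580 CPM with CBX1, and its log2 fold change of -1.43 ± 0.59 did not pass (adjusted p = 0.0911). With the abundance trend removed it was called lower (-2.02, adjusted p = 0.0308). ZNF566 (-0.25 ± 0.18), ZNF574 (-0.13 ± 0.10) and ZNF181 (-0.13 ± 0.17) did not pass, nor did ZNF507 (-0.08 ± 0.09) and ZNF428 (-0.03 ± 0.10), and in all 5 the CBX1 and Control libraries overlapped.

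CBX1_W42A against Control asked what the chromodomain captured with its aromatic pocket changed. Of 58 members tested, 1 (1.72%) was called higher, against 0.974% of all genes, and 0 were called lower, against 0.0214%. DESeq2 gave the same counts of 1 and 0. At an unadjusted p below 0.05, 5 members (8.62%) were higher and 5 lower, near the 9.66% and 9.61% of all genes. ZNF345 was also the only member with an adjusted p below 0.05 at any fold change (1.72%, against 1.37% of all genes on the higher side), and 0 were lower, against 1.25%. Groups did not overlap on the higher side for 6 members (10.3%), against 12.4% of all genes, and on the lower side for 4 (6.90%), against 11.9%. The share on the higher side was near that of all genes, the lower-side difference was not tested, and the median log2 fold change of the members was 0.03, beside 0.01 over all genes. ZNF345 was higher by 0.86 ± 0.20 (adjusted p = 0.0303), with all 3 CBX1_W42A libraries above the Control libraries. That call was lost without Control replicate 1 (adjusted p = 0.0934), Control replicate 2 (0.0780), CBX1_W42A replicate 2 (0.0949) or CBX1_W42A replicate 3 (0.0554), with log2 fold changes of 0.70 to 0.91. ZNF780B (0.45 ± 0.17, adjusted p = 0.142) and ZNF850 (0.42 ± 0.14, adjusted p = 0.117) were separated from Control without passing. ZNF45 lay below Control in all 3 libraries (-0.53 ± 0.15, adjusted p = 0.0707).

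CBX1 against CBX1_W42A compared the intact and the changed pocket directly. The sample numbers of the CBX1_W42A libraries stand apart from those of the other groups, and the labels do not say whether all were prepared together. A difference in preparation cannot be told apart from the changed pocket, here or against Control. Of 58 members, 5 (8.62%) were called higher with CBX1, against 0.795% of all genes, and 0 were called lower, against 0.201%. DESeq2 gave 5 and 0, and at an unadjusted p below 0.05, 31 members (53.4%) were higher, against 8.23% of all genes, and 3 (5.17%) lower, against 8.40%. At any fold change, 11 of 58 were higher at an adjusted p below 0.05, against 1.32% of all genes, and 0 were lower, against 0.925%. All CBX1 libraries exceeded all CBX1_W42A libraries for 25 members (43.1%), against 10.1% of all genes, and the reverse held for 2 (3.45%), ZNF181 and ZNF114, against 11.3%. The median log2 fold change was 0.42, a 1.34-fold difference, with 47 of 58 above 0, beside 49.4% of all genes above 0. The number called ran from 3, without CBX1_W42A replicate 1 or replicate 3, to 11 without CBX1_W42A replicate 2, the library of that group in which the members were highest.

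Of the 5 called, ZNF568, ZNF221 and ZNF155 were also called over Control. ZNF568 differed most, by 1.19 ± 0.18 (adjusted p = 0.000807), followed by ZNF221 with 1.06 ± 0.23 (adjusted p = 0.0139) and ZNF155 with 0.80 ± 0.13 (adjusted p = 0.00187). ZNF221 lost its call without CBX1 replicate 3 (adjusted p = 0.0705) or CBX1_W42A replicate 1 (0.0574), and ZNF155 fell to between 0.70 and 0.74 without CBX1 replicate 2, CBX1_W42A replicate 1 or CBX1_W42A replicate 3. ZNF829 had 26, 30.7 and 26.8 CPM in Control, 17.6, 27.2 and 20.9 CPM with CBX1_W42A and 35.6, 48.0 and 41.4 CPM with CBX1. It exceeded CBX1_W42A by 0.93 ± 0.15 (adjusted p = 0.00187), and its change over Control of 0.60 ± 0.12 passed at an adjusted p of 0.00318 but stayed under the 0.75 limit. ZNF45 had 18.4, 25.1 and 22 CPM in Control, 15.7, 16 and 13.9 CPM with CBX1_W42A and 27.4, 24.4 and 26.5 CPM with CBX1. CBX1 overlapped Control for this gene, so that its difference of 0.78 ± 0.14 from CBX1_W42A (adjusted p = 0.00363) stood beside the low CBX1_W42A values, and it fell under the limit without CBX1 replicate 1 (0.74) or CBX1_W42A replicate 3 (0.72). ZNF780B (0.70 ± 0.13, adjusted p = 0.00603) and ZNF850 (0.55 ± 0.13, adjusted p = 0.0269) passed without reaching 0.75. ZNF850 no longer passed without CBX1_W42A replicate 1 (adjusted p = 0.0797) or 3 (0.0778) or without any 1 of the CBX1 libraries (0.0630 to 0.102). ZNF345 did not pass (0.38 ± 0.15, adjusted p = 0.202), nor did ZNF404 (0.99 ± 0.30, adjusted p = 0.0776), which was called without the filter on low counts (adjusted p = 0.0201) and with the replicate number as a block (1.01, adjusted p = 0.0189), and ZNF792 of the first cluster was at 0.70 ± 0.30 (adjusted p = 0.23).

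ZNF829 and ZNF568 are transcribed away from each other from starts 38 bases apart. The start region is shown on the plus strand from GRCh37 (chr19:37407144-37407280), with the 37 bases between the starts in capitals and 50 bases of each gene beside them.
ZNF829 and ZNF568 start region: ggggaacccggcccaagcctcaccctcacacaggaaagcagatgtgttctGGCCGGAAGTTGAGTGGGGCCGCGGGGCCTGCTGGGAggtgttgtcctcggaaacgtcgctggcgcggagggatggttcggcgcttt
It holds 11 CpG and is 65.7% G or C. Both genes lay below Control with CBX1_W42A, without passing (-0.35 ± 0.16 and -0.38 ± 0.20), and above it with CBX1. The letters CCGGAAG, searched on both strands as the core of an ETS factor motif, occur between these starts, and in the 300 bases centred on the start of 17 members (26.2%), against 11.5% of 20345 protein-coding genes. The site between ZNF829 and ZNF568 counts for both genes, as any site shared by neighbouring starts does, and the difference was not tested. The other head-to-head pairs with starts within 1 kb overlap at their 5′ ends. ZNF790 and ZNF345 had log2 fold changes over Control of 0.46 ± 0.16 and 1.28 ± 0.17 with CBX1. ZNF529 and ZNF382 were at 0.47 ± 0.10 and 0.22 ± 0.14, and ZNF585B and ZNF383 at 0.33 ± 0.70 and 0.72 ± 0.14. ZNF382 (adjusted p = 0.265) and ZNF585B (adjusted p = 0.766), which had 40 counts in all, did not pass. ZNF569 and ZNF570, whose 5′ ends overlap with starts farther apart than 1 kb, were at 0.14 ± 0.11 and 0.08 ± 0.14, without passing.

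Median values differed among the clusters, of which ZNF546 to ZNF780A had only 2 members tested. In CBX1 against Control, the median log2 fold change was 0.25 in ZNF302 to ZNF792 (0 of 5 called), 0.41 in ZNF565 to ZNF573 (3 of 24), 0.82 in ZNF546 to ZNF780A (1 of 2) and 0.55 in ZNF575 to ZNF180 (5 of 19). For the scattered members it was -0.07 (0 of 6 called). Of all genes tested, 7.06% were called higher in this comparison. Against CBX1_W42A, the medians were 0.15, 0.40, 0.48 and 0.56 in the same order and -0.27 for the scattered members. Members with the KRAB A box pattern had medians of 0.44 over Control (7 of 42 called) and 0.50 over CBX1_W42A (5 of 42), and those without had 0.16 (2 of 14) and -0.01 (0 of 16). Over CBX1_W42A, 0.795% of all genes were called higher. At such shares, 0 calls among so few members do not set a subset apart from all genes. Because 6 of the 7 scattered members lack the pattern, position and KRAB box cannot be told apart there. ZNF146, ZNF507, ZNF428 and ZNF574, the members of highest level, also lack it, and ZNF507 and ZNF574 are scattered. Medians over Control differed by Control level as well, 0.54 at or under the set's median level and 0.23 above it. Level therefore cannot be told apart from position or KRAB box in these subsets. The differences between these subsets were not tested.

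**Figure D4:**
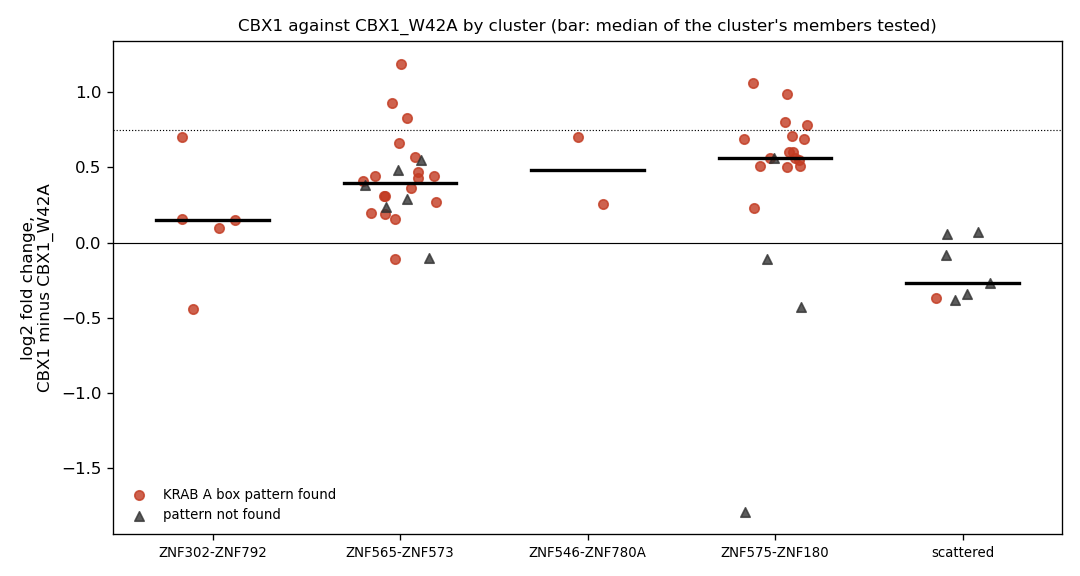
Log2 fold change of CBX1 against CBX1_W42A (vertical axis) for the 58 members tested, by cluster (horizontal axis), with circles where the KRAB A box pattern was found, triangles where it was not, and bars at the cluster medians of 0.15, 0.40, 0.48, 0.56 and -0.27. Members above the dotted line exceed 0.75, and the lowest point, at -1.79, belongs to ZNF575, which had 35 counts in all.

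Other gene groups of the same libraries place these values. ZNF genes elsewhere on chromosome 19 had the same median over Control, 0.41, with 27 of 131 called higher, and a median of 0.38 over CBX1_W42A, with 17 of 131 called. ZNF genes outside chromosome 19 had medians of 0.05 and 0.05, with 10 of 226 and 6 of 228 called. The other protein-coding genes of the same interval had medians of 0.09 and 0.01, with 22 of 311 and 4 of 317 called. These calls stood beside 7.06% and 0.795% of all genes called higher. With CBX1_W42A against Control, the medians of these 3 groups were 0.02, -0.04 and 0.05. The comparisons share libraries pairwise, so their values are not independent of one another, and the differences between gene groups were not tested.

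**Figure D5:**
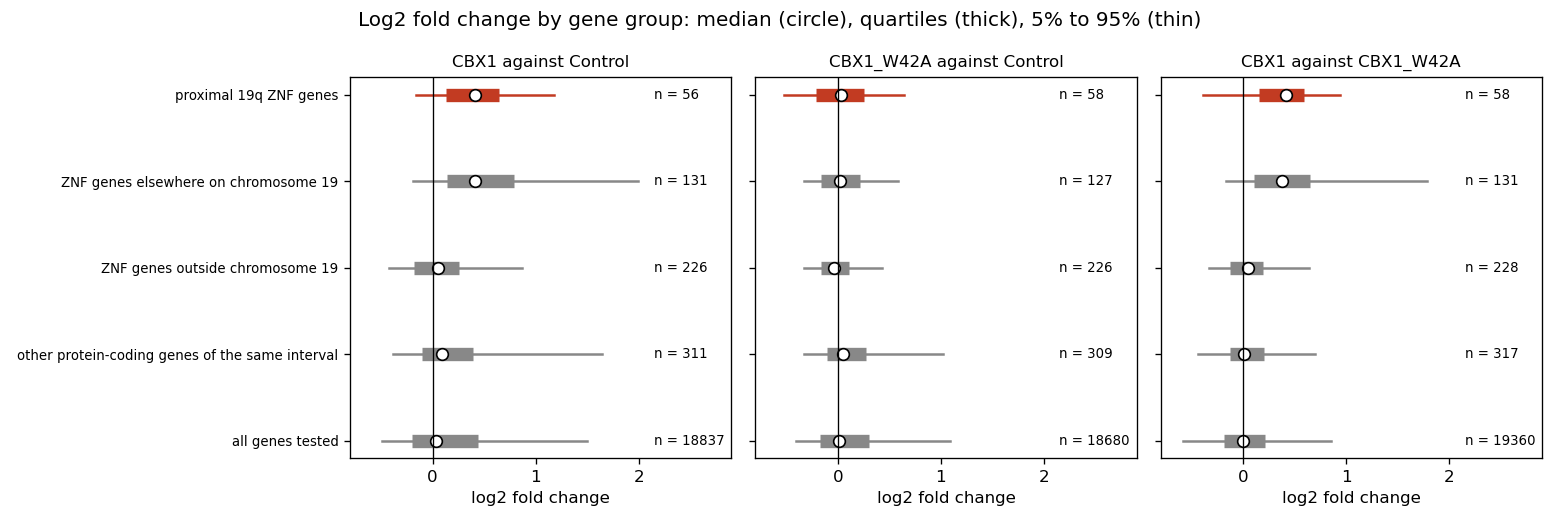
Distribution of log2 fold changes (horizontal axes) in the 3 comparisons for the proximal 19q ZNF genes (top row of each panel) and 4 other gene groups (circle, median; thick bar, quartiles; thin line, 5% to 95%). In the panels of CBX1 against Control and against CBX1_W42A, the members' medians of 0.41 and 0.42 lie beside those of the other chromosome 19 ZNF genes, at 0.41 and 0.38, and right of the remaining groups.

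Among RNAs of the repression pathway itself, no change reached the 0.75 limit with an adjusted p below 0.05 in the main edgeR fits. Of 23 listed genes 22 were tested, and 0 were called in any comparison by edgeR and 0 by DESeq2, while 13, 7 and 7 had an unadjusted p below 0.05 in CBX1 against Control, CBX1_W42A against Control and CBX1 against CBX1_W42A (59.1%, 31.8% and 31.8% of those tested, against 34.2%, 19.3% and 16.6% of all genes). TRIM28, the corepressor bound by KRAB boxes, had 308 ± 22.9 CPM in Control, 285 ± 24.2 CPM with CBX1_W42A and 279 ± 15.2 CPM with CBX1 (SD, n = 3), with a log2 fold change of -0.12 ± 0.09 in CBX1 against Control (adjusted p = 0.373). ATF7IP, the partner of SETDB1, was higher with CBX1 by 0.52 ± 0.09 over Control (adjusted p = 0.00125) and by 0.73 ± 0.11 over CBX1_W42A (adjusted p = 0.000733). The difference from CBX1_W42A exceeded 0.75 with library size alone (0.77) and with the abundance trend removed (0.78). It also did so without CBX1 replicate 2 (0.76) or CBX1_W42A replicate 2 (0.81), and lay between 0.69 and 0.75 in the other alternative fits. ZNF274, a KRAB protein encoded at the distal end of chromosome 19 that binds ZNF gene ends, was higher with CBX1 by 0.55 ± 0.11 over Control (adjusted p = 0.00351) and by 0.54 ± 0.11 over CBX1_W42A (adjusted p = 0.00894, and 0.0795 without CBX1 replicate 1). The SETDB1 difference from CBX1_W42A of 0.47 ± 0.11 (adjusted p = 0.0327) lost its pass without CBX1 replicate 1 (0.216), CBX1 replicate 3 (0.117), CBX1_W42A replicate 1 (0.0708) or CBX1_W42A replicate 3 (0.113), and its difference from Control did not pass (0.16 ± 0.13, adjusted p = 0.390). Higher with CBX1 at an adjusted p below 0.05 were 2 of 22 over Control, beside 10.6% of all genes, and 3 of 22 over CBX1_W42A, beside 1.32%. EHMT1, EHMT2, FAM208A, TRIM27, CHD4 and HDAC2 were lower with CBX1 than in Control at an adjusted p below 0.05, with log2 fold changes between -0.27 and -0.35, and 6 of 22 stood beside 9.46% of all genes. Each of these 6 lost its pass in 5 to 10 of 15 alternative fits, upper-quartile factors and the removal of the abundance trend among them. TRIM27 with CBX1_W42A against Control (-0.51 ± 0.13, adjusted p = 0.0453) lost its pass in 9 of 15. CBX1 RNA had 616 ± 69.3 CPM in Control and 539 ± 17.9 CPM with CBX1 (adjusted p = 0.22), and reads of the transfected chromodomain cannot be told apart from it in these counts.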

How the data were processed

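RNA was measured by Chrom-seq in 9 libraries. Per the paper's methods, the authors used fastp 0.23.1 for trimming, HISAT2 2.1.0 for alignment to hg19 and featureCounts 2.0.1 for counting over GENCODE v19, and deposited whole-number counts without normalization. Strand and feature settings are not given in the sources used here and were read from the counts. Groups came from the labels. In R (version 4.3.3), each comparison of 6 libraries was normalized by TMM and tested across all genes whose counts summed to more than 18 with edgeR (version 4.0.16) and its quasi-likelihood test, with Benjamini-Hochberg adjustment over all genes tested. DESeq2 (version 1.42.0), other normalizations, other filters and leaving out libraries were alternatives. The tests were checked on simulated counts. 0 rows name no gene and 0 sample columns were left out. Total counts of 8379542 to 11082852 per library limit precision for members of few counts.

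The members, the lists and the rule for named genes were chosen with earlier results of these data known. Named genes were, in CBX1 against Control, up to 12 members called higher with separated groups, the 4 lowest and the extremes of each cluster, then the 4 of highest level, up to 6 called in each other comparison, any called lower, and those with 0 counts. Clusters join starts within 250 kb, with at least 3 members. ZNF227, the pathway genes, the members named for position or span, and the members given beside one of these were named outside that rule. Sequences and protein features came from GRCh37 with GENCODE v44 lifted to it (canonical coding sequences, translated). Fingers were counted by spacing of cysteines and histidines.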

Additional observations from a re-analysis of the deposited data

How the results depend on the processing

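For CBX1 against Control, 9 members higher became 4 at a minimum log2 fold change of 1 and 0 when the test asked for a change beyond log2 0.75 (5 at an unadjusted p below 0.05). With the abundance trend removed, 7 of the 9 remained and 1 was lower. The median of 0.41 was 0.49 with upper-quartile factors and with library size alone, where the median over all genes was 0.11 and 0.12, and 0.33 with the abundance trend removed. For CBX1_W42A against Control, the 1 call became 0 at a minimum of 1, in the test beyond 0.75 and with the trend removed. For CBX1 against CBX1_W42A, 5 became 2 at a minimum of 1 and 0 in the test beyond 0.75.

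Leaving out 1 library at a time gave 7 to 10 members higher in CBX1 against Control (median 0.35 to 0.43), 0 to 1 higher and 0 to 1 lower in CBX1_W42A against Control (median -0.10 to 0.11, with ZNF227 lower without CBX1_W42A replicate 2), and 3 to 11 higher in CBX1 against CBX1_W42A (median 0.33 to 0.56). With the replicate number as a block the counts were 9, 1 and 6. Deviations of same-numbered libraries correlated between -0.23 and 0.17, so the numbers were not taken as pairs. DESeq2, RLE factors, no low-count filter, filterByExpr and 1 fit of all 9 libraries kept each count within 1.5 times. Only members with at least 80% of their span free, a choice made after seeing the data, gave 6, 1 and 5 higher and medians of 0.39, 0.00 and 0.40. For named members, 970 values kept their call or lack of one, 44 lost a call and 4 gained one. The block added ZNF404 to CBX1 against CBX1_W42A. The cause of these shifts was not tested.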
